A study of Vitis vinifera with 171 samples.

Results

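Germacrene D synthases are terpene synthases that cyclise farnesyl diphosphate, the common precursor of the sesquiterpenes, into germacrene D, a volatile hydrocarbon of plant tissues. Sesquiterpenes contribute to the aroma of the grape berry and act in plant defence, and germacrene D itself can be rearranged into cadinane-type sesquiterpenes. The terpene synthase family of grapevine is large and many of its members lie in tandem clusters of closely similar genes. The 8 genes described here are those annotated as germacrene D synthases in the study's gene lists, and all 8 carry identifiers of chromosome 18, between VIT_18s0001g04120 and VIT_18s0001g05460. The annotation rests on sequence similarity, and no enzyme product was measured on these arrays.

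The 8 genes came from a list of transcripts selected by the study for a large and uniform rise from veraison to harvest in the vineyards of 2008. The array table names probes and not genes, so the probes of each gene were found from the data. The array carried 4 probes for most genes, and consecutive probes were grouped into 29544 probe sets by their correlation. Each gene was then paired with the probe set whose 2008 stage averages were closest to those listed for the gene, within 0.3 (log2) and at least 0.05 nearer than the next. All 8 genes were found, with deviations of 0.006 to 0.108, of 5311 genes named in all. On 29 genes of the same list that values of single samples had already named, the closest probe set was the right one for 27, and the 27 pairings past the lead of 0.05 were all right. The lead was chosen after the candidates had been seen. By the strictest reading, which allows no other probe set within 0.3, only VIT_18s0001g04490 and VIT_18s0001g04780 were unique.

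Of the 8 probe sets, 7 lay in 1 run of probe numbers from 127224 to 127711, in the same order as the gene identifiers. VIT_18s0001g04490 was the exception, with probe numbers from 125822 to 125831. The run of the 7 also held VIT_18s0001g03600 and VIT_18s0001g03620, so not all genes named in it followed the order of the identifiers. Another uncertainty concerned VIT_18s0001g05460, since 2 of its 4 probes did not follow the remaining ones. Over the 57 triplicate means, 2 of its probes had a correlation of 0.96 and 0.97 with the mean of the 8 genes, whereas the others had -0.04 and 0.11. The level of this gene therefore came almost wholly from 2 probes. Closely similar genes can hybridise to each other's probes, and how much each probe set shared signal with its neighbours was not tested.

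The arrays measured berry pericarp (whole berries without seeds) of Vitis vinifera cv Corvina, clone 48, so that every vine shared 1 genotype. Berries were taken at veraison (the onset of ripening), mid-ripening and harvest from 11 vineyards of the Bardolino, Valpolicella and Soave areas in 2008 (VM, PM, BM, GIV, MN, CC, CS, PSP, BA, AM and FA). The vineyards AM, CS, MN and PSP were also sampled in 2006 and 2007, which gave 57 combinations of vineyard, year and stage with 3 biological replicates each, 171 arrays in all. Vineyards differed in altitude, soil, training system and rootstock, no vine was treated, and the sampling times were moved with the season to obtain similar stages. The study considered its samples uniformly ripe at each stage. Its sugar readings (°Brix) at mid-ripening were nevertheless lower in 2007 than in 2006 in AM, CS, MN and PSP, while total acidity differed in both directions. All levels are log2 intensities, in which a difference of 1 is a doubling, and they are not compared between genes because each gene has its own probes.

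Signal over background differed between arrays. The 95th percentile of the 19605 random control probes, which match no gene, served as the reference for background and ranged from 5.17 to 9.42 (log2), with a median of 6.91. The replicate SD of the 8 genes was 0.67 to 1.09, against a median of 0.31 over all probe sets. Total RNA of whole pericarp was hybridised, so a change in a cell type's share and a change in its transcripts cannot be told apart. The gene for legumin, a seed storage protein, was detected and increased through ripening, from 8.21 at veraison to 11.42 at harvest in 2006 and from 8.17 to 10.92 in 2007, although seeds were removed. Legumin was on the same list of rising genes as the 8 genes. A rise was therefore a condition for its place there, and whether any seed material was present was not tested. The part of legumin in the results was not tested.

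In 2006 all 8 germacrene D synthases increased between veraison and harvest, by 3.27 to 5.86 (log2). VIT_18s0001g04280 had the largest estimate. Its veraison levels were 5.43 in AM, 5.24 in CS, 5.07 in MN and 5.65 in PSP, and its harvest levels were 11.40, 11.84, 12.01 and 9.57 in the same vineyards. The groups did not overlap, and the lowest harvest vineyard, PSP, was far above the highest veraison vineyard. The fitted difference was 5.86 ± 0.91 (SE, n = 4 vineyards), an increase of 58.1-fold, with an adjusted p of 1.6e-05 in limma with Benjamini-Hochberg adjustment over all probe sets. A gene is called higher or lower where this adjusted p is below 0.05. None of its 12 veraison arrays exceeded the random-probe reference, so the measured increase is better read as at least 29.9-fold. The same held for VIT_18s0001g04490 (at least 13.2-fold) and VIT_18s0001g05240 (at least 6-fold).

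VIT_18s0001g05450 rose from 5.97, 5.88, 5.91 and 6.46 in AM, CS, MN and PSP at veraison to 11.71, 11.75, 11.99 and 9.80 at harvest of 2006. The difference was 5.26 ± 0.79 (SE, n = 4 vineyards; adjusted p = 1.1e-05 in limma). VIT_18s0001g04780 began higher on its own probes, at 6.73, 7.47, 6.76 and 7.07, and reached 10.45, 11.17, 11.62 and 8.49. Its 12 veraison arrays were all above the random-probe reference. Its increase of 3.42 ± 0.80 had an adjusted p of 0.0018 in limma, the highest of the 8 genes. Of all 29544 probe sets, 12.6% were called higher in this comparison. The median difference of the 8 genes was 4.60, against 0.05 over all probe sets. All 8 calls remained when any 1 of the 4 vineyards was left out.

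**Figure D1:**
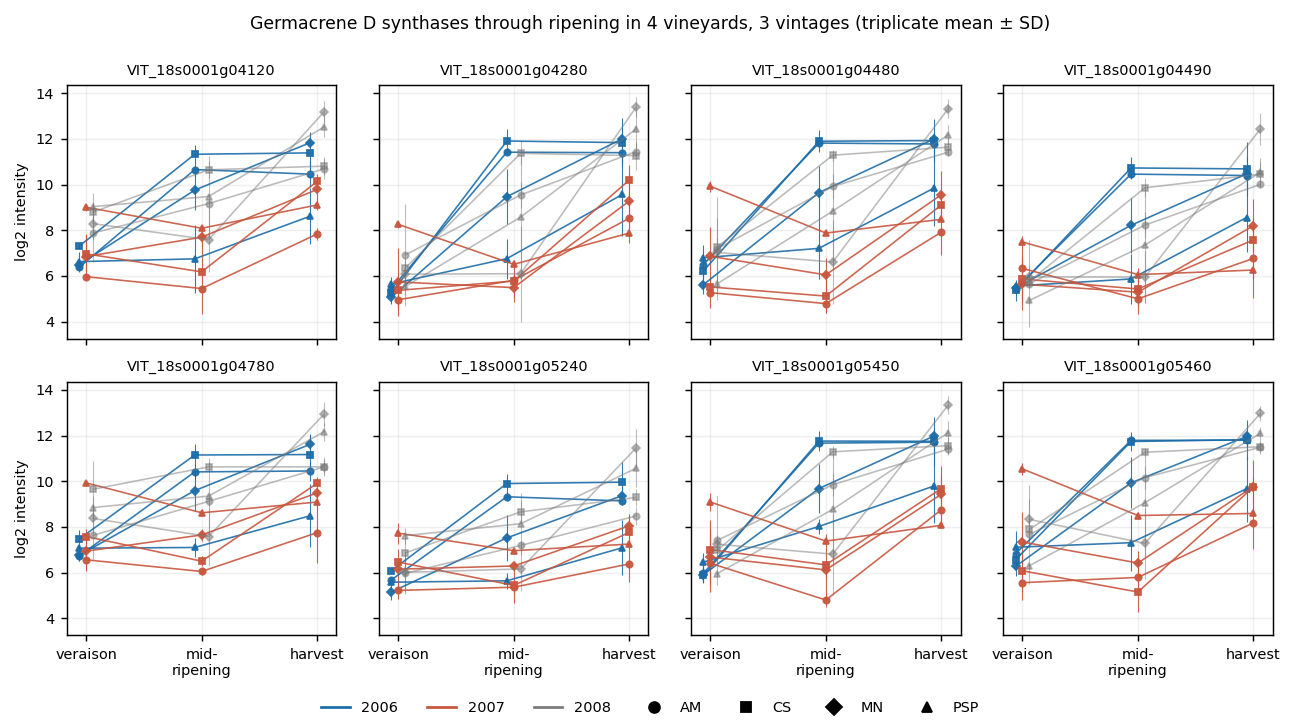
Levels of the 8 germacrene D synthases (log2 intensity, 1 panel per gene) at veraison, mid-ripening and harvest in vineyards AM, CS, MN and PSP. Points are means of 3 replicates with SD bars, colours are years and symbols are vineyards. In 2006 AM and CS were near their harvest levels at mid-ripening, whereas in 2007 the levels of these vineyards at mid-ripening were 4.79 to 6.50 and the increase came after it.

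Most of the increase of 2006 fell in the first step, from veraison to mid-ripening. All 8 genes rose in this step, by 2.48 to 4.54 (adjusted p of 0.00042 to 0.03 in limma), with 6.38% of all probe sets called higher. Of 102 further genes found from the same rising list, 66 were called higher, with a median of 1.96. The vineyards did not move together. The mean of the 8 genes at mid-ripening was 10.94 in AM and 11.30 in CS, values close to their harvest means of 10.89 and 11.32. In MN it was 9.23 and went on to 11.41 at harvest. In PSP it was only 6.83, close to the 6.36 of veraison, and reached 8.96 at harvest. For VIT_18s0001g04280 the first-step differences were 5.99 in AM, 6.67 in CS, 4.40 in MN and 1.11 in PSP. The number of genes called was 2 without AM, 2 without CS and 3 without MN, and it stayed at 8 without PSP.

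From mid-ripening to harvest of 2006 the estimates were all above 0 (0.79 to 1.32), but no gene passed the threshold in limma, and none had an unadjusted p below 0.05. Of all probe sets, 0.220% were called in this comparison, and 7.48% had an unadjusted p below 0.05. In AM the 8 genes differed by -0.20 to 0.04 in this second step, and in PSP by 1.39 to 2.81. The first step was also compared within array slides. In each of the 4 vineyards at least 1 veraison array shared a slide with mid-ripening arrays. Within slides the 8 genes increased on average by 4.84 in AM, 5.28 in CS, 2.80 in MN and 0.48 in PSP, with 8 of 8 genes higher in each.

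In 2007 the course was different. The estimates from veraison to mid-ripening were all below 0, from -1.14 to -0.18, and no gene passed the threshold in limma, nor had any an unadjusted p below 0.05. Of all probe sets, 12.4% were called and 25.6% had an unadjusted p below 0.05. VIT_18s0001g05450 measured 6.41, 7.01, 6.68 and 9.09 in AM, CS, MN and PSP at veraison and 4.80, 6.34, 6.12 and 7.38 at mid-ripening, and each value was lower at the later stage. In AM and CS these values were at background, since 0 of 24 and 2 of 24 values of the 8 genes exceeded the random-probe reference at veraison and none at mid-ripening, so their differences are not read as a decrease. On the 3 slides that held both stages, in AM, CS and MN, the mean of the 8 genes differed by -0.40, -0.30 and 0.04. With the slide as a random block over the 108 single arrays, which counts the replicates of a vineyard as separate samples, 1 gene was called in this step. Over the alternatives 1792 to 17115 of all probe sets were called. The share under the slide fit alone is not given, so nothing is read from its count.

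The increase of 2007 came between mid-ripening and harvest. Estimates were 1.35 to 3.07, and 7 of the 8 genes had an unadjusted p below 0.05, as did 15.8% of all probe sets. Only VIT_18s0001g05450 passed the adjusted threshold in limma (2.83 ± 0.79, SE, n = 4 vineyards, adjusted p = 0.043), with 1.69% of all probe sets called higher. It rose to 8.75, 9.68, 9.43 and 8.07 in AM, CS, MN and PSP. VIT_18s0001g04280 moved from 5.81, 5.78, 5.49 and 6.51 to 8.53, 10.20, 9.28 and 7.88, and the groups did not overlap (3.07 ± 0.91; adjusted p = 0.055 in limma). With the slide as a random block over single arrays, which counts the replicates of a vineyard as separate samples, all 8 genes were called. With vineyard and year as a random block 5 were, and without AM, CS, MN or PSP 0, 0, 0 and 3. Over the alternatives 202 to 13321 of all probe sets were called. The share under each block fit alone is not given, so nothing is read from the counts of those fits. Leaving out replicate A, B or C left 0, 2 and 0 calls. Within slides the 8 genes were higher at harvest by a mean of 2.38 in AM, 3.52 in CS and 3.19 in MN.

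From veraison to harvest of 2007 the estimates were 0.87 to 2.89. VIT_18s0001g04280 was the only one of the 8 genes called higher in limma (2.89 ± 0.91, SE, n = 4 vineyards, adjusted p = 0.017), with 15.4% of all probe sets called higher. An unadjusted p below 0.05 was found for 3 of the 8 genes and for 40.0% of all probe sets. Of 102 further genes found from the same rising list, 59 were called higher, with a median of 1.52. The number of synthases called depended on the vineyards, with 0 called without AM, CS or MN and 6 without PSP. It was 5 with the slide as a random block over single arrays, which counts the replicates of a vineyard as separate samples. Over the alternatives 5949 to 20422 of all probe sets were called. The share under the slide fit alone is not given, so nothing is read from its count. In AM, CS and MN all 8 genes were higher at harvest than at veraison. In PSP 7 of the 8 had the opposite sign, from -1.95 for VIT_18s0001g05460 to -0.37 for VIT_18s0001g04280, and VIT_18s0001g04120 differed by 0.11. The veraison and harvest arrays of PSP in 2007 lay on different slides, so stage and slide cannot be told apart there.

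PSP at veraison of 2007 stood apart from the remaining veraison groups of 2006 and 2007. The mean of the 8 genes there was 9.00, against 5.78 in AM, 6.36 in CS and 6.53 in MN in the same year, and 6.36 in PSP the year before. VIT_18s0001g04480 measured 9.82, 10.21 and 9.77 in replicates A, B and C, and VIT_18s0001g04780 measured 9.82, 10.08 and 9.89. All 24 values of the 8 genes exceeded the random-probe reference, which was itself low on these arrays (5.28 on average). The arrays of PSP at veraison of 2006 lay on the same slide. Within it the genes were higher in 2007 by 1.94 to 3.43, with a mean of 2.64 and 8 of 8 genes higher. The mean in PSP was then 7.50 at mid-ripening and 8.09 at harvest. Each stage of PSP in 2007 lay on a different slide, so stage and slide cannot be told apart in this course. The replicates of PSP in 2007 were close to each other at every stage, with VIT_18s0001g04780 at 8.45, 8.77 and 8.63 at mid-ripening and at 9.11, 9.14 and 9.02 at harvest.

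At mid-ripening 6 of the 8 genes were lower in 2007 than in 2006, with differences of -4.19 to -2.77 (log2), and 2.53% of all probe sets were called lower. VIT_18s0001g05450 had levels of 11.67, 11.76, 9.68 and 8.02 in AM, CS, MN and PSP in 2006 and of 4.80, 6.34, 6.12 and 7.38 in 2007. It was lower in every vineyard, and the groups did not overlap. The difference was -4.13 ± 0.79 (SE, n = 4 vineyards; adjusted p = 0.003 in limma). VIT_18s0001g04480 had the largest estimate, -4.19 ± 1.00 (adjusted p = 0.015 in limma), with 3 of 4 vineyards lower. The 2 genes not called were VIT_18s0001g04780 (-2.35 ± 0.80, adjusted p = 0.077) and VIT_18s0001g05240 (-2.09 ± 0.75, adjusted p = 0.093 in limma). The median of the 8 genes was -3.55, against 0.05 over all probe sets. In none of the vineyards did arrays of 2006 and 2007 share a slide at mid-ripening or at harvest. Year and slide therefore cannot be told apart within a vineyard at those stages.

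The differences were widest in AM and CS. In AM all 8 genes were lower in 2007, with VIT_18s0001g04480 at 4.79 against 11.82, and in CS the same gene was at 5.12 against 11.90. Of the 32 differences of 1 gene in 1 vineyard, 26 were below 0 and 6 above, and those 6 were all in PSP, with VIT_18s0001g04780 at 8.62 in 2007 against 7.10 in 2006. No gene was called without AM or without CS, 4 were called without MN and all 8 without PSP. The random-probe reference was higher in 2007 in those vineyards, at 7.50 against 6.48 in AM and at 7.91 against 6.44 in CS. None of the 24 values of the 8 genes exceeded it in either vineyard at mid-ripening of 2007, so these levels are upper bounds. With every value below the reference raised to it, 5 genes were called lower and the estimates were -2.96 to -1.31.

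The mid-ripening difference was also fitted probe by probe. All 32 probes of the 8 genes had an estimate below 0 and 17 were called lower, against 1.74% of all gene probes. The 4 probes of VIT_18s0001g04280, of VIT_18s0001g04480 and of VIT_18s0001g05450 were all called. Of the probes of VIT_18s0001g05460, 2 were called and the smallest difference was -0.05. VIT_18s0001g04490 had 2 called and VIT_18s0001g04120 had 1, while VIT_18s0001g04780 and VIT_18s0001g05240 had 0 of 4 each.

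**Figure D2:**
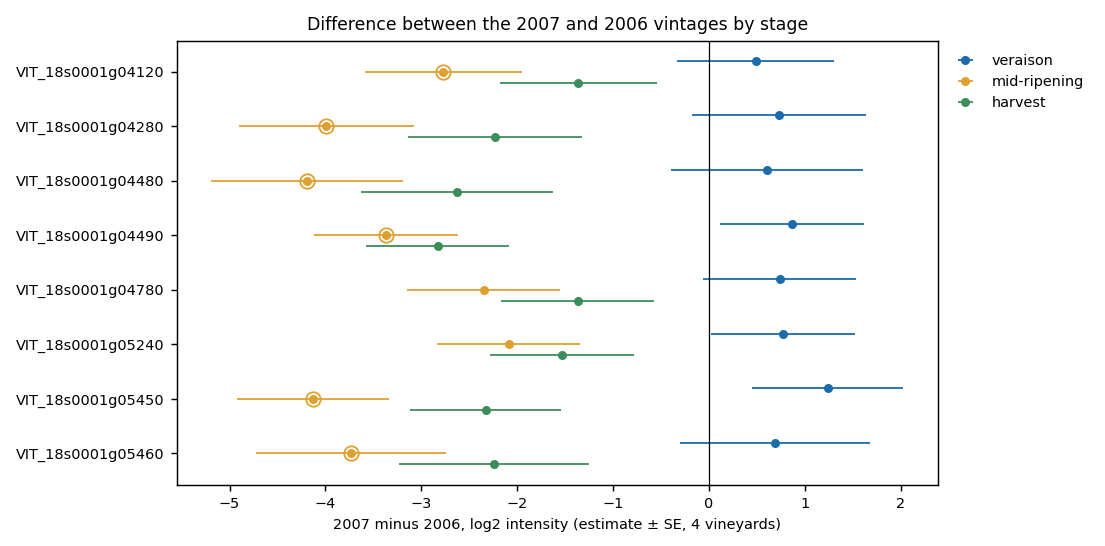
Difference between 2007 and 2006 (log2 intensity, horizontal axis) for the 8 genes at veraison, mid-ripening and harvest. Points are limma estimates with bars of 1 SE over 4 vineyards, and a ring marks an adjusted p below 0.05, which 6 genes reached at mid-ripening and none at veraison or harvest.

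At harvest the 8 estimates of 2007 minus 2006 were again below 0, from -2.83 to -1.36. An unadjusted p below 0.05 was found for 5 of the genes and for 16.0% of all probe sets. None of the 8 was called in limma, with 0.169% of all probe sets called lower. VIT_18s0001g04490 came closest, with levels of 10.40, 10.69, 10.47 and 8.56 in AM, CS, MN and PSP in 2006 and of 6.77, 7.58, 8.20 and 6.26 in 2007 (-2.83 ± 0.75; adjusted p = 0.082 in limma). Every vineyard was lower in 2007 and the groups did not overlap. At veraison the estimates were all above 0, from 0.49 to 1.24, and none was called, with 16.0% of all probe sets called. None of the 8 genes had an unadjusted p below 0.05 there, against 32.0% of all probe sets. With the slide as a random block over single arrays, which counts the replicates of a vineyard as separate samples, all 8 were called at veraison. Over the alternatives 897 to 19447 of the 29544 probe sets were called there. The share under the slide fit alone is not given, so nothing is read from its count. PSP had the largest of the differences at veraison for each of the 8 genes (1.94 to 3.43).

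The year effect on the ripening course was tested as the difference of differences. For the whole course, harvest minus veraison, it was -3.70 to -1.85 in 2007 relative to 2006. No gene was called in limma, with 0.359% of all probe sets called. An unadjusted p below 0.05 was found for 6 of the genes and for 14.0% of all probe sets. With the slide as a random block over single arrays, which counts the replicates of a vineyard as separate samples, all 8 genes were called. With vineyard and year as a random block 2 were. Over the alternatives 3 to 13904 of all probe sets were called. The share under each block fit alone is not given, so nothing is read from the counts of those fits. For the first step alone, a contrast added after the changes had been seen, the estimates were -5.37 to -2.86. VIT_18s0001g05450 (-5.37 ± 1.12, adjusted p = 0.016 in limma) and VIT_18s0001g04490 (-4.25 ± 1.06, adjusted p = 0.046) were called, with 0.586% of all probe sets called lower. No gene was called without AM, CS or MN, and 4 were without PSP. With the slide, or with vineyard and year, as a random block all 8 were called in the first step. Over the alternatives 6 to 12761 of all probe sets were called in it, and nothing is read from the counts of the block fits there either. For the second step, also added afterwards, the estimates were 0.54 to 1.80 and no gene was called in limma, with 0% of all probe sets called. None of the 8 genes had an unadjusted p below 0.05 in it, against 2.34% of all probe sets.

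Other genes of the ripening programme moved with the vintage too. Of the 107 further genes that the study listed as rising in 2008, 102 were found. At mid-ripening 43 of these were lower in 2007 and 0 higher, with a median of -1.30. Of the 90 genes listed as falling, 81 were found, and 49 were higher in 2007 and 0 lower, with a median of 1.52. Photosystem I subunit O (VIT_06s0080g00920), a photosynthetic gene of the falling list, stood at 11.92 in 2007 against 9.95 in 2006 (1.97 ± 0.38, adjusted p = 0.003 in limma). Ripening markers thus differed between the vintages at the stage given the same name. The study's °Brix at mid-ripening was lower in 2007 than in 2006 in AM, CS, MN and PSP. Its total acidity was lower in AM, CS and PSP and higher in MN. The part of ripeness in the germacrene D synthase difference was not tested. The rising and falling lists were themselves chosen by the study on the 2008 arrays of the same vineyards.

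In 2008 the stages themselves had served to select the genes and to find their probes, so their course is given as a description. Over the 11 vineyards VIT_18s0001g04280 averaged 6.37 ± 0.74 at veraison, 8.41 ± 1.87 at mid-ripening and 11.81 ± 1.42 at harvest (SD over vineyards). VIT_18s0001g04780 averaged 8.40 ± 0.93, 8.88 ± 1.34 and 11.46 ± 1.23. In the vineyards MN and BM nearly all of the increase came late, with the mean of the 8 genes going from 6.76 at mid-ripening to 12.88 at harvest in MN and from 7.57 to 12.58 in BM. CS had reached 10.63 at mid-ripening and stood at 10.90 at harvest. Among the vineyards sampled in every year, AM and CS had the higher means of the 8 genes at mid-ripening in both 2006 and 2008, and PSP had the highest in 2007. In 2008 PSP was above AM for VIT_18s0001g04120, VIT_18s0001g04780 and VIT_18s0001g05240.

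**Figure D3:**
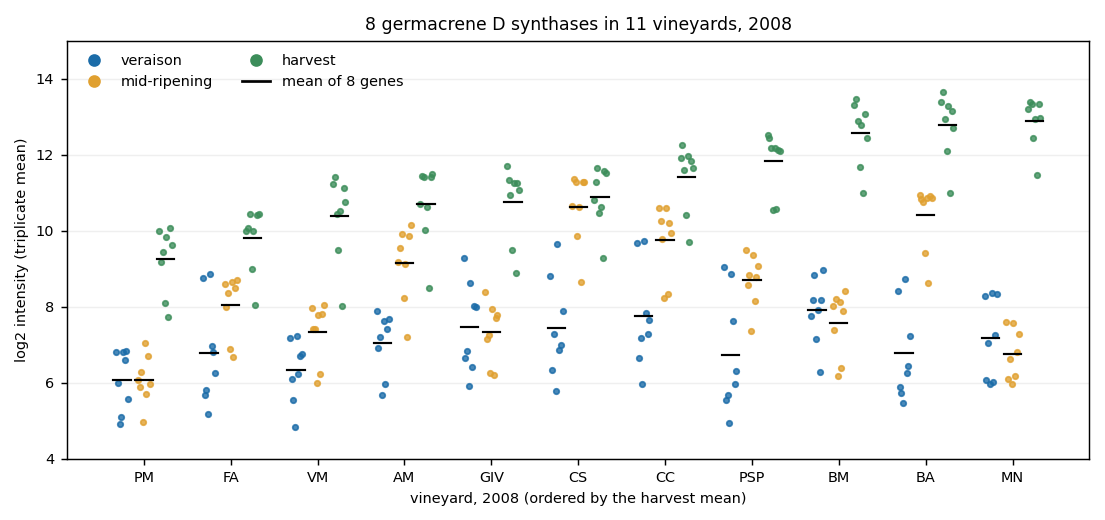
Levels of the 8 genes in the 11 vineyards of 2008 (log2 intensity; each point is the triplicate mean of 1 gene, each bar the mean of the 8 genes), with vineyards ordered by the harvest mean. Harvest means ran from 9.25 in PM to 12.88 in MN, and mid-ripening means did not follow the same order.

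At harvest of 2008 all 8 genes were called between the 11 vineyards (limma F test over 33 arrays), as were 74.7% of all probe sets. The study chose its list for a rise of similar extent in these vineyards, and the same arrays served to find the probes, so this count and the others between the vineyards of 2008 are descriptions and nothing is read from them. VIT_18s0001g04780 is given as the example. Its lowest vineyards were PM (9.83 ± 0.75, SD, n = 3), FA (10.00 ± 1.19) and VM (10.53 ± 0.72), the middle one was GIV (11.26 ± 0.43), and the highest were BM (12.79 ± 0.24), MN (12.94 ± 0.52) and BA (13.27 ± 0.08). The highest vineyard exceeded the lowest by 10.8-fold.

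The same vineyards stood at the ends for the other genes. PM was lowest for the 8 genes, level with FA for VIT_18s0001g04120 at 10.00, and MN or BA was highest for each. The place of PM rested on 1 array. Replicate A of PM was below the other replicates in 7 of the 8 genes, with VIT_18s0001g04280 at 5.67 against 10.75 and 11.08 in replicates B and C. Without it PM averaged 10.91 for this gene, above the 10.06 of FA, and FA was lowest for 7 of the 8 genes and PM for 1. For VIT_18s0001g05240 the range ran from 7.73 in PM to 11.46 in MN, and for VIT_18s0001g04490 from 8.10 in PM to 12.44 in MN. High and low vineyards lay in the same areas: BA and VM in Bardolino, MN, BM and FA in Valpolicella. In VIT_18s0001g04120 the areas averaged 11.79 ± 1.13 in Bardolino, 12.26 ± 1.55 in Valpolicella and 10.86 ± 0.97 in Soave (SD over 4, 4 and 3 vineyards). No gene was called between the 3 areas in limma's F test over the 11 vineyard means, with 0.345% of all probe sets called. An unadjusted p below 0.05 was found for 0 of the genes and for 11.3% of all probe sets. These counts too are descriptions, since the list was chosen for a rise of similar extent in these vineyards.

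At harvest of 2006, 8 of 8 genes were called between the 4 vineyards (adjusted p of 1e-05 to 0.043 in limma), with 52.4% of all probe sets called. At harvest of 2007, 5 of 8 genes were called (adjusted p of 0.00035 to 0.076 in limma over all 8 genes). As 71.9% of all probe sets were called in 2007, nothing is read from that count. At both harvests the 3 arrays of each vineyard lay on 1 slide, which held no other vineyard of that harvest, so vineyard and slide cannot be told apart in these tests. PSP was the lowest vineyard for all 8 genes at harvest of 2006, with VIT_18s0001g04780 at 8.49 ± 1.38 (SD, n = 3) and the remaining vineyards at 10.45 to 11.62. In 2008 PSP was above AM and CS for each of the genes, at 12.17 ± 0.40 for VIT_18s0001g04780 against 10.63 in each of those. Whether the order of vineyards differed between the vintages was not tested. Leaving out a replicate reduced the calls to 4 and 3 in 2006 (without B and C) and to 2 in 2007 (without A or B).

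At mid-ripening of 2008 all 8 genes were called between the 11 vineyards in limma, with 68.5% of all probe sets called. CS, BA, CC and AM were high, with means of the 8 genes of 10.63, 10.40, 9.74 and 9.15, and PM was low at 6.07. With the slide as a random block 3 genes were called, and without replicate B 2. At veraison 5 of the 8 genes were called, with 63.8% of all probe sets called, and without replicate A or B 1 and 2 were. With values below the random-probe reference raised to it, none of the 8 was called at veraison.

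The 8 genes were closely correlated over the 57 triplicate means, with Pearson's r of 0.90 to 0.99 for the 28 pairs, which all share the contrast between ripe and unripe berries. At veraison they fell into 2 sets. VIT_18s0001g04120, VIT_18s0001g04780 and VIT_18s0001g05240 correlated with each other over the 19 veraison means at 0.81 to 0.94, and VIT_18s0001g04280, VIT_18s0001g04480, VIT_18s0001g04490, VIT_18s0001g05450 and VIT_18s0001g05460 at 0.70 to 0.95. Between the sets r was only 0.15 to 0.59. The split was drawn after the values had been seen and is a description. Over the harvest means the correlations between the sets were 0.89 to 0.95.

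**Figure D4:**
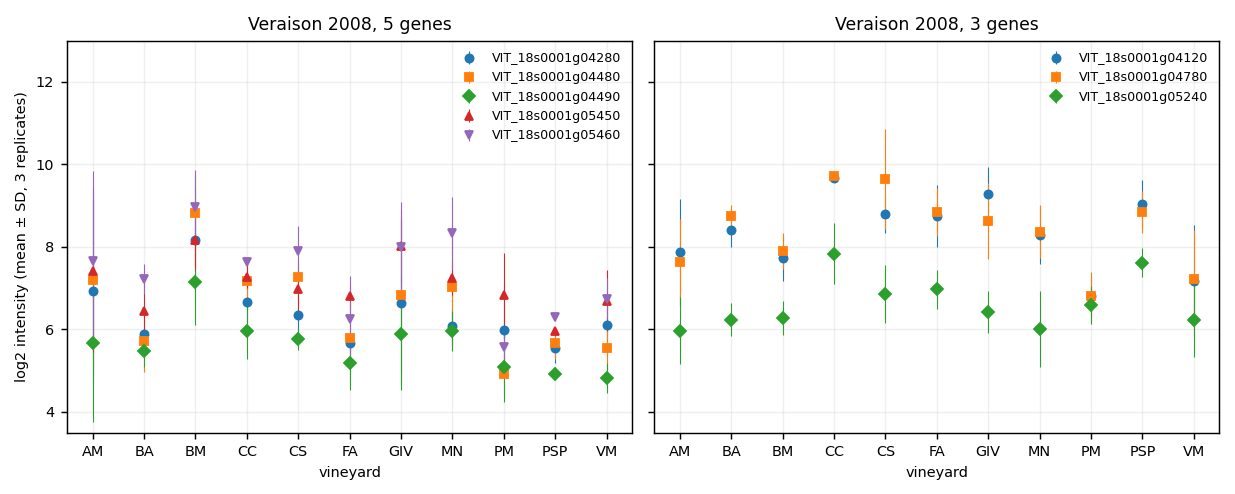
Levels at veraison of 2008 by vineyard (log2 intensity, mean with SD bars over 3 replicates), for the set of 5 genes on the left and the set of 3 genes on the right. BM was highest for each gene of the first panel (7.16 to 8.97), whereas CC was highest for each gene of the second (7.84 to 9.73).

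The vineyards that were high at veraison of 2008 differed between the sets. CC was highest for VIT_18s0001g04120 (9.67 ± 0.08, SD, n = 3), VIT_18s0001g04780 (9.73 ± 0.10) and VIT_18s0001g05240 (7.84 ± 0.75). BM was highest for VIT_18s0001g04280 (8.18 ± 1.23), VIT_18s0001g04480 (8.82 ± 0.91) and VIT_18s0001g05460 (8.97 ± 0.90). PSP, which was among the higher vineyards for VIT_18s0001g05240 (7.62 ± 0.35), was the lowest for VIT_18s0001g05450 (5.96 ± 0.08). Signal over background differed between the genes. VIT_18s0001g04120 and VIT_18s0001g04780 exceeded the random-probe reference in 28 of 33 arrays at this stage and VIT_18s0001g05240 in 15. In the set of 5 genes VIT_18s0001g05460 did in 16, VIT_18s0001g04480 and VIT_18s0001g05450 in 12 each, VIT_18s0001g04280 in 8 and VIT_18s0001g04490 in 4, so that the sets overlapped in this respect. The part of background in the weaker correlations was not tested.

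In PSP the levels of single genes at veraison took different courses over the vintages. VIT_18s0001g04120 stood at 6.63 in 2006, 9.01 in 2007 and 9.04 in 2008, and VIT_18s0001g05240 at 5.58, 7.73 and 7.62. VIT_18s0001g04780, of the same set, stood at 7.07, 9.93 and 8.85, so that all of this set were above their 2006 level in 2008. VIT_18s0001g05450 stood at 6.46, 9.09 and 5.96, and VIT_18s0001g05460 at 7.11, 10.54 and 6.30. The 5 genes of this set were below their 2006 level in 2008. None of their values in PSP at veraison of 2008 exceeded the random-probe reference, so these differences are not read as a decrease.

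Among the 11 other terpenoid genes examined, both of the sesquiterpene branch were called in the same direction as the germacrene D synthases. A (+)-delta-cadinene synthase (VIT_18s0001g05430), which makes a cadinane sesquiterpene, rose by 3.87 ± 0.68 from veraison to harvest of 2006 (adjusted p = 8.8e-05 in limma) and was lower in 2007 at mid-ripening by -2.48 ± 0.68 (adjusted p = 0.032). A further sesquiterpene synthase (VIT_18s0001g04080) rose by 2.42 ± 0.44 (adjusted p = 0.00011 in limma) and was also lower at mid-ripening of 2007 (-1.63 ± 0.44, adjusted p = 0.028). Their mean levels were 4.92 and 5.06 at veraison of 2006 and 5.39 and 5.49 at mid-ripening of 2007. The median random-probe reference was 6.27 and 6.96 at these stages, so the differences start from background levels and their sizes are not exact. The correlations of these 2 genes with the mean of the 8 genes were 0.95 and 0.87 over the 57 means.

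The remaining 9 terpenoid genes belong to precursor supply, sterol synthesis and carotenoid turnover. One 9-cis-epoxycarotenoid dioxygenase (VIT_02s0087g00910), of the enzyme family that commits carotenoids to abscisic acid, rose in 2006 by 4.42 ± 0.50 and in 2007 by 2.54 ± 0.50 (adjusted p of 1.7e-07 and 0.0003 in limma). A beta-carotene hydroxylase (VIT_02s0025g00240) fell in 2006 by 2.38 on the log2 scale (adjusted p = 5.1e-06 in limma). Over the list 3 genes were called higher and 3 lower from veraison to harvest of 2006, with a median of 0.15. At mid-ripening, 2 were lower in 2007 and 0 higher, the 2 sesquiterpene synthases named above, with a median of -0.17. Both isopentenyl diphosphate isomerases, which make the isoprenoid building block, had correlations of 0.14 and 0.05 with the 8 genes.

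Around the 8 genes on chromosome 18, 21 further genes between VIT_18s0001g04000 and VIT_18s0001g05700 were in the study's lists and 19 were found. From veraison to harvest of 2006, 7 were higher and 5 lower, with a median of 0.34. Besides both sesquiterpene synthases, the genes most like the germacrene D synthases were 3 without an annotated similarity, VIT_18s0001g05410 (r = 0.95), VIT_18s0001g04410 (r = 0.94) and VIT_18s0001g05280 (r = 0.85), singled out after their values were seen. Another gene of the interval went the opposite way, a beta-D-xylosidase (VIT_18s0001g05180), an enzyme that acts on cell wall xylans, which fell by 4.00 on the log2 scale.

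Across all named genes, those with a pattern most like the mean of the 8 were chosen by Pearson's r over the 57 means. They were a pathogenesis-related protein 1 (VIT_03s0088g00700, r = 0.96), a pathogenesis-related protein 10 (VIT_05s0077g01530, r = 0.95), an osmotin (VIT_02s0025g04260, r = 0.95), the unannotated VIT_18s0001g05410 (r = 0.95) and a dirigent protein (VIT_06s0004g01030, r = 0.95). Pathogenesis-related proteins and osmotins are known as defence proteins that also accumulate in ripening grape berries. VIT_05s0077g01530 showed the vintage difference as well, at 11.44 at mid-ripening of 2006 and 5.44 in 2007 (-6.00 ± 0.98, adjusted p = 0.00068 in limma). Its mean of 2007 was below the median random-probe reference of 6.96 at that stage, so the size of this difference is not exact. Before rounding, 12 of all probe sets had an r of 0.95 or more, of which 8 were the germacrene D synthases and 3 were other named genes, and 212 had one of 0.8 or more.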

How the data were processed

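Total RNA of berry pericarp was hybridised to single-colour NimbleGen arrays. The intensity values were deposited by the authors as 1 linear table of all 171 arrays, normalized together (the processing notes name RMA, version not given in the sources used here). Their distribution was the same on every array, from 9.16 to 63131.31. The number of arrays limits the precision.

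For each gene the intensities of its probes were averaged and the average was put on the log2 scale. Stages and years were compared with limma 3.58.1 in R 4.3.3 on 36 triplicate means (4 vineyards, 9 groups of year and stage, vineyard as a block). Vineyards were compared by moderated F tests over arrays and areas over vineyard means. P-values were Benjamini-Hochberg adjusted over 29544 probe sets, with 0.05 as the threshold, and each procedure was checked on simulated data. Python 3.11.15 was used for the tables. Named genes are the 8 synthases, 11 other terpenoid genes, listed genes of the same stretch of chromosome 18 and the 5 named genes with the highest Pearson's r to the mean of the 8. Other named genes were chosen after their values were seen. The genes, lists and tests were chosen with earlier results of these data known.

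Replicates A, B and C are biological replicates in the study's terms. How clusters were divided among them is not given in the sources used here, so tests over arrays measure only the spread between these samples. Groups followed the source labels, with which the titles of 2 arrays disagreed. Alternatives covered probe summary, background, normalization, blocks and leaving out vineyards or replicates. Control rows and probes without a gene name were left out of the tests.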

Additional observations from a re-analysis of the deposited data

Results flagged for a closer look

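Of 64 groups of 4 vineyard means that were examined for a value far from the others, 6 held one, where chance gives about 1 in 20, or 3.2. At harvest of 2006 PSP was the lowest vineyard and far from the next for VIT_18s0001g04480 (9.86, next 11.78), VIT_18s0001g04490 (8.56, next 10.40), VIT_18s0001g05450 (9.80, next 11.71) and VIT_18s0001g05460 (9.67, next 11.80). These genes were closely correlated, so the flags are not independent. The 3 replicates there were spread, with VIT_18s0001g04280 at 10.98, 10.20 and 7.54. At veraison of 2006 PSP was the highest for VIT_18s0001g05450 (6.46, next 5.97). At harvest of 2008 BA was the highest of the 4 Bardolino vineyards for VIT_18s0001g04280 (13.66, next 11.41).

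The change from veraison to mid-ripening differed between 2007 and 2006 for VIT_18s0001g04490 (-4.25) and VIT_18s0001g05450 (-5.37) in limma's test of the difference of differences. For VIT_18s0001g04480 (-4.80) every vineyard was higher at mid-ripening in 2006 and lower in 2007, while its test gave an adjusted p of 0.094 in limma.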

How the results depend on the processing

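The increase of all 8 genes from veraison to harvest of 2006 was called under all 18 alternatives. Between areas no gene was called under any of the 18. Only 0 to 171 of all probe sets were called there, so nothing is read from it. At harvest of 2008, 7 or 8 genes differed between the 11 vineyards. Read with no other probe set allowed within the tolerance, 2 of the 8 genes were found. Over 1728 estimates of single genes none reversed a call, 65 lost it and 191 gained it. The year differences in the first and second steps, and their alternatives, were added after seeing the data. The causes of the changes below were not tested.

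Taking the 108 single arrays in place of triplicate means treats the replicates of a vineyard as separate samples. The letters A, B and C did not pair samples (median correlation of deviations 0.009, over 0.1 in 51 of 171 pairs). With no replicate block, and equally with the replicate letter as a block, the genes called were 8 from veraison to harvest of 2007 (1 in the main analysis), 4 from veraison to mid-ripening of 2007 (0), 8 from mid-ripening to harvest in 2006 (0) and in 2007 (1), 4 between the vintages at veraison (0), 8 at mid-ripening (6) and 8 at harvest (0). For the year difference in the course these fits called 8 over the whole course, 8 in the first step and 5 in the second. The replicate letter as a block left 7 genes called between vineyards at harvest of 2006. With the slide as a random block over the same arrays (consensus correlation 0.525) the counts were 5 and 1 from veraison to harvest and to mid-ripening of 2007, 8 from mid-ripening to harvest of 2007, 8, 8 and 1 between the vintages at the 3 stages, and 8 over the whole course and in the first step for the year difference. At mid-ripening of 2008 the slide block left 3 genes called between vineyards. With vineyard and year as a random block (0.442) they were 2 from veraison to harvest of 2007, 5 from mid-ripening to harvest of 2007, and 2 over the whole course and 8 in the first step for the year difference.

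The floor at the random-probe reference gave 0 genes from veraison to harvest and from mid-ripening to harvest of 2007, 2 for the whole course and 5 for the first step of the year difference, and 0 between vineyards at veraison of 2008. The median of the probes gave 3 from veraison to harvest of 2007 and quantile normalization of gene values 2, as it did from mid-ripening to harvest of 2007, where adding 50 to each intensity gave 0. For the first step of the year difference median polish, the probe median, the added 50 and subtraction of the random-probe median each called 1 gene (main 2).

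Leaving out 1 vineyard gave 0 to 6 genes from veraison to harvest of 2007, 2 to 8 from veraison to mid-ripening of 2006, 0 to 3 from mid-ripening to harvest of 2007, 0 to 8 between the vintages at mid-ripening, and 0 to 4 for the first step of the year difference. Leaving out 1 replicate gave 0 to 2 from mid-ripening to harvest of 2007, 0 to 1 between the vintages at harvest, 1 to 2 for the first step, 1 to 4 between vineyards at veraison of 2008 (main 5), 2 to 8 at mid-ripening of 2008 (8), 3 to 7 at harvest of 2006 (8) and 2 to 4 at harvest of 2007 (5).

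Counts over all probe sets moved more. Their value under each single-array or block fit is not given, so nothing is read from the gene counts of those fits. Over the alternatives they ran from 5439 to 18900 (main 7797) from veraison to harvest of 2006, from 5949 to 20422 (8856) in 2007, from 2515 to 16715 (4385) and from 1792 to 17115 (3665) to mid-ripening, from 6 to 9193 (65) and from 202 to 13321 (1069) in the second step, and from 897 to 19447 (4731), 179 to 17401 (1611) and 2 to 15190 (144) between the vintages at the 3 stages. For the year difference they ran from 3 to 13904 (106), 6 to 12761 (332) and 0 to 5087 (0) for the course and its steps. Between vineyards they ran from 7386 to 19013 (18852), 10937 to 20240 (20224) and 10836 to 25918 (22074) at the 3 stages of 2008, and from 9902 to 21813 (15484) and 16242 to 25736 (21230) at harvest of 2006 and 2007, and between areas from 0 to 171 (102).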

Other observations

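Between 2008 and 2006 the 8 genes were compared by values only, since the 2008 arrays had served to choose them. At mid-ripening 24 of the 32 differences of 1 gene in 1 vineyard were lower in 2008, and the 8 higher ones were all in PSP, by 0.74 to 2.73. At harvest 19 were higher and 13 lower, with PSP higher by 1.98 to 3.91.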
